A study of Rattus norvegicus with 9 samples.

Results

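AP-1 is a family of transcription factors that bind DNA as dimers of basic leucine zipper proteins. A Jun protein pairs with another Jun, with a Fos protein, or with a relative such as an ATF or Maf protein, and Fos proteins need a partner. Many of these genes are immediate-early genes, which are switched on within minutes of a growth factor, nerve, inflammatory or physical stimulus without new protein synthesis, and whose messages decay quickly. The 10 genes described here are Fos, Fosb, Fosl1 and Fosl2 (the Fos family), Jun, Junb and Jund (the Jun family), and the partners Atf3, Batf and Maff. They are 10 of the 17145 rows of each deposited expression table, matched by gene symbol, and 9 of the 10 reached a mean of 1 FPKM in either table. FPKM divides a gene's fragments by its length and by the size of the library, so levels of different genes can be set side by side. The genes were selected on their measured differences between these groups of samples, so their values are given as a description, with no p-value, and how many of them passed a fit over all genes is printed only beside the share of all genes that did.

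Total RNA was sequenced from the ileum, the last stretch of small bowel, of Otsuka Long-Evans Tokushima fatty rats, an obese and diabetic strain that lacks a working cholecystokinin receptor, which all groups share. Tissue was collected 1 month after surgery. The 3 groups of 3 samples are sham-operated ileum, ileum after Roux-en-Y gastric bypass (RYGB) with FDG decreased, and RYGB ileum with FDG increased. RYGB routes food from a small gastric pouch into a limb of jejunum. FDG is read as fluorodeoxyglucose, the glucose analogue of positron emission tomography, which the labels do not spell out. The labels do not say whether replicates were separate animals, so errors and p-values measure the spread between these samples, which may be technical. The RYGB table holds FDG-decreased and FDG-increased libraries, and the sham table holds FDG-increased and sham libraries.

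The FDG-increased columns of the tables were not the same 3 libraries. After scaling, the sham table's FDG-increased columns 2 and 3 matched numbers 1 and 2 in the RYGB table to within 1% for 99.985% and 99.941% of genes, so 12 columns held 10 distinct libraries, 4 of them FDG-increased against 3 samples in the labels. The first FDG-increased column of the sham table correlated at r = 0.979 with the second column over 10790 genes, about as closely as same-numbered libraries of the RYGB table did with each other (0.977 to 0.982). Sham replicate 1 went against its tissue label. Fabp6, the bile acid binding protein of ileal enterocytes, stood at 22.6 FPKM in it, against 8375 and 11347 FPKM in the other sham libraries, and Lct, the lactase of proximal gut, at 253 FPKM against 8.60 and 0.317. Results from the sham table are therefore also given without sham replicate 1 and without the first FDG-increased column. The summed FPKM per library ran from 465697 to 864511. Read depth is unknown, since the tables hold no counts.

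Promoter windows of 300 bases, from 250 before to 50 after the start of transcription, were taken from RefSeq (GRCr8) for 7 of the 10 genes. Fos, Jun and Atf3 had no window and were not searched. Short elements known from promoters of early genes were searched on both strands: the cyclic AMP response element TGACGTCA, the AP-1 site TGANTCA, the TATA box TATAAA and the CArG box bound by serum response factor. The 4 sequences that held a match are printed over the 250 bases before the start, 5′ to 3′ along the gene, with the match in capitals, so that they can be set beside the unlike differences of these 4 genes. They lie at chr7:112792537-112792786 (Maff, plus strand), chr16:18769772-18770021 (Jund, minus strand), chr19:40080876-40081125 (Junb, plus strand) and chr1:88089185-88089434 (Fosb, minus strand).
Maff: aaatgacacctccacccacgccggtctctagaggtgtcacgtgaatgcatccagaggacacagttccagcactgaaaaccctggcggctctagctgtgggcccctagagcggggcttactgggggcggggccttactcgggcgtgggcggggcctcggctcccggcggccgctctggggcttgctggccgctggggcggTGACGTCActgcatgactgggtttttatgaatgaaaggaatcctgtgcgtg
Jund: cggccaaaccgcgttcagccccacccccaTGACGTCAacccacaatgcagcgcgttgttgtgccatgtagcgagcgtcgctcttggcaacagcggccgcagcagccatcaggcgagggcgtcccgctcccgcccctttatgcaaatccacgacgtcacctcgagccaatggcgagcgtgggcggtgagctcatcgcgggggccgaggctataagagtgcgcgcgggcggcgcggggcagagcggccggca
Junb: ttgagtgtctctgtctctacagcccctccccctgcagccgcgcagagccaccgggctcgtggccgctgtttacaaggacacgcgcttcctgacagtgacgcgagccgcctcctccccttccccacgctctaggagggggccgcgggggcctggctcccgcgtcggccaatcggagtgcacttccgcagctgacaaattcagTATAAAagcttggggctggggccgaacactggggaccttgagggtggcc
Fosb: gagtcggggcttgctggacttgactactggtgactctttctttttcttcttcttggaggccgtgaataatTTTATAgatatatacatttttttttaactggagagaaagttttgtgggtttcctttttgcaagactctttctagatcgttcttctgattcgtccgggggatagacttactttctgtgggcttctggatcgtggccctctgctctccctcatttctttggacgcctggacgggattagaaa
The cyclic AMP response element lay 51 bases before the start of Maff and 221 bases before that of Jund, and 1.83% of all 33469 promoter windows held one. The TATA box lay 49 bases before the start of Junb, and in Fosb 180 bases before the start on the opposite strand. It occurred in 14.2% of all windows. None of the 7 windows held the AP-1 site, found in 7.33% of all, or the CArG box, found in 1.64%. Fos, Jun and Atf3 are not among these windows, so this says nothing of their promoters. No matches overlapped. A match describes the letters of the window and does not show that a factor binds there.

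FDG-increased RYGB ileum held more Atf3, Fosb, Fos, Maff, Batf and Fosl1 message than sham ileum in every library of the sham table, and Fosl2 stood nearest to its sham level. In the Fos family, Fos is the classic early gene that partners Jun. It stood at 332, 320.1 and 89.2 FPKM in FDG-increased ileum and at 57.3, 15.99 and 28.9 FPKM in sham ileum. The lowest FDG-increased library lay above the highest sham library, and the third column stood well below the first and second. The means were 247 ± 137 and 34.1 ± 21.1 FPKM (SD, n = 3 each), a ratio of 7.25. In bulk tissue, more cells expressing a gene and more RNA per cell cannot be told apart.

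Fosb, a Fos relative with the same early timing, was nearly silent in sham ileum. It stood at 15.2, 34.7 and 19.0 FPKM in FDG-increased ileum against 1.22, 0.402 and 1.93 FPKM in sham ileum. The groups did not overlap, and the means differed by a ratio of 19.4, the largest among the 10 genes in this comparison. Fosl1, a later Fos relative without a transactivation domain, read 0.657, 1.17 and 1.65 FPKM against 0.434, 0.300 and 0.515 FPKM. It lay higher in each FDG-increased library too, but its mean over the 6 libraries of the table was under 1 FPKM, so it was not fitted. Fosl2 was the most abundant Fos family gene in sham ileum. It stood at 72.9, 119.9 and 52.3 FPKM against 78.0, 36.9 and 64.6 FPKM, and the groups overlapped with a ratio of means of 1.36.

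Among the Jun genes, which can form dimers without Fos, the levels were high in all libraries and the differences were smaller. Jun stood at 141, 145 and 63.1 FPKM in FDG-increased ileum and at 71.4, 27.2 and 42.8 FPKM in sham ileum. The third FDG-increased column lay inside the sham range, and the ratio of means was 2.47. Junb, which is induced early and can dampen Jun activity, stood at 281, 252 and 76.7 FPKM against 57.8, 29.2 and 77.9 FPKM. The first 2 columns lay far above sham, and the third just under the highest sham library. Jund, the Jun gene that is expressed most steadily in many tissues, stood at 259, 303 and 98.7 FPKM against 172, 40.9 and 123 FPKM. The groups overlapped, with a ratio of means of 1.97 for Jund and 3.70 for Junb.

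Of the partner genes, Atf3, a stress-induced factor that pairs with Jun proteins and often represses transcription, showed a wide gap. It stood at 80.9, 149.9 and 95.0 FPKM in FDG-increased ileum and at 9.60, 3.81 and 7.69 FPKM in sham ileum. Every FDG-increased library was above 80 FPKM and every sham library under 10 FPKM, with means of 109 ± 36.5 and 7.03 ± 2.95 FPKM (SD, n = 3 each). Maff, a small Maf protein without a transactivation domain, stood at 12.8, 26.1 and 22.0 FPKM against 3.77, 3.98 and 9.22 FPKM. The groups did not overlap and the means differed by a ratio of 3.59. Batf, which acts with Jun and interferon regulatory factors in lymphocytes, was low throughout, at 2.83, 2.95 and 2.32 FPKM against 2.30, 0.596 and 1.70 FPKM. Its groups were set apart by a narrow margin. The plot of levels by library shows all 10 genes.

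**Figure D1:**
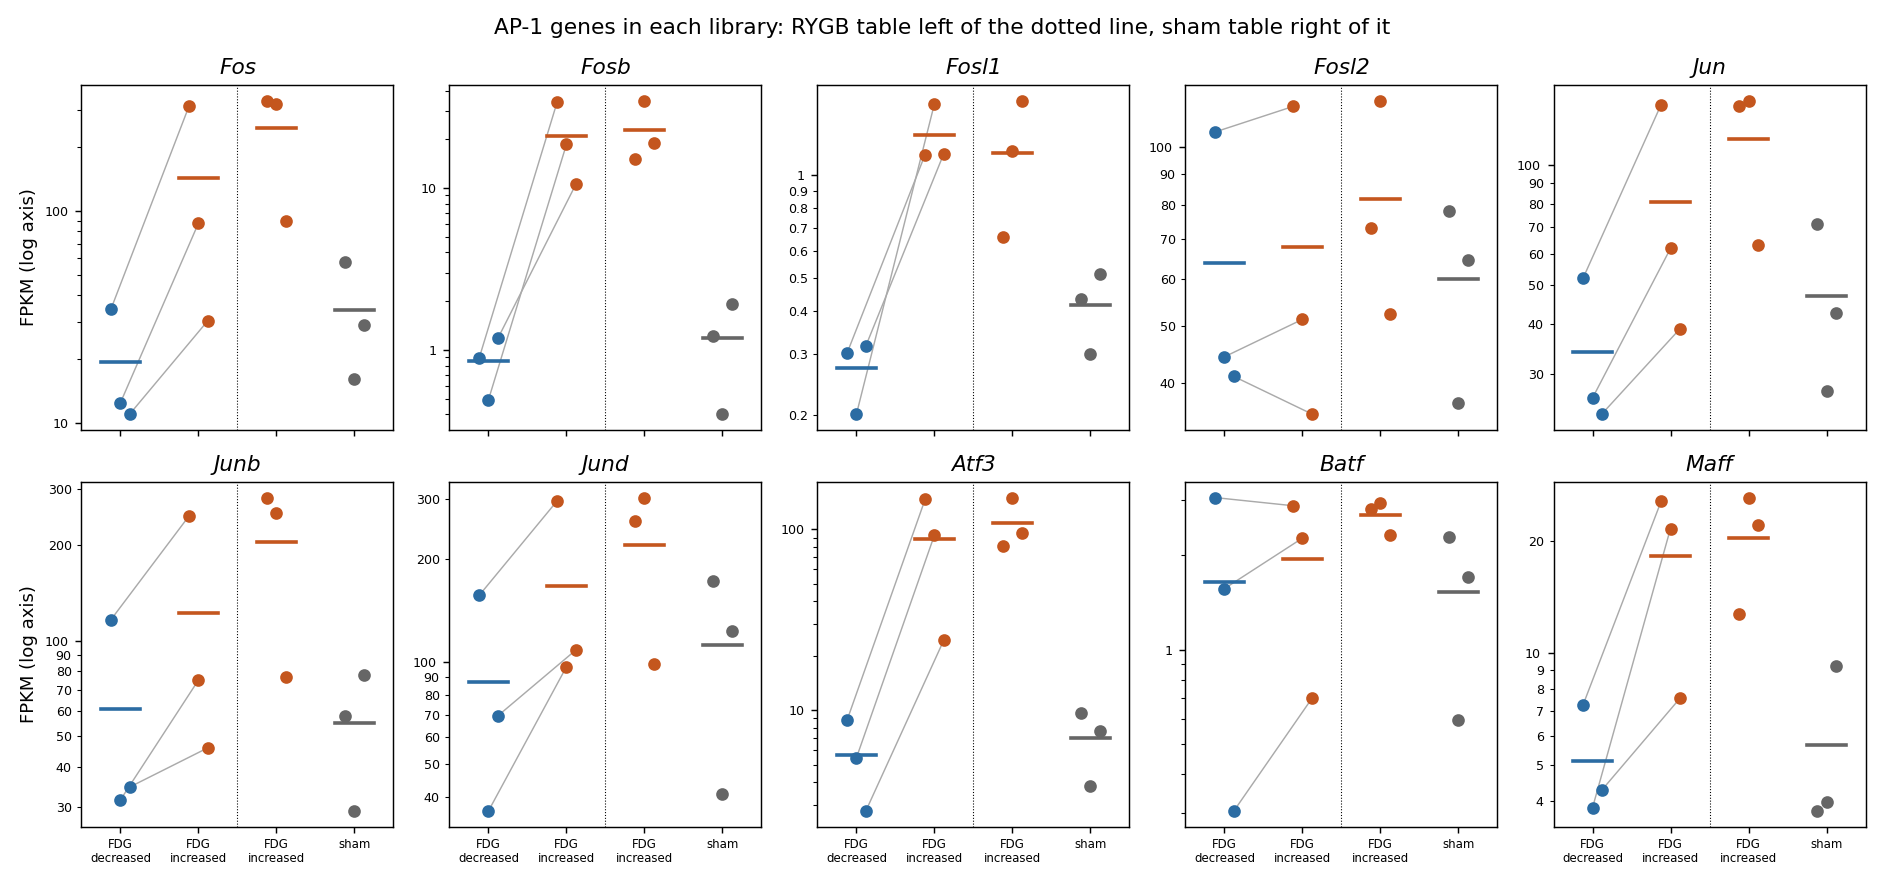
FPKM on a log axis of the 10 AP-1 genes in each library, with FDG-decreased and FDG-increased ileum of the RYGB table left of the dotted line and FDG-increased and sham ileum of the sham table right of it. Points are libraries, bars are group means and grey lines join same-numbered libraries; Atf3 and Fosb separate fully in both tables, while Fosl2 overlaps in both.

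On the scale of log2(FPKM + 1), which understates change at low levels, FDG-increased minus sham was 3.80 for Atf3 (SE 0.378), 3.44 for Fosb (SE 0.373) and 2.78 for Fos (SE 0.605). It was 1.77 for Junb, 1.71 for Maff, 1.30 for Jun, 1.04 for Jund, 0.61 for Batf and 0.43 for Fosl2, with standard errors from 0.295 to 0.606. In order of size among all 10801 genes fitted, Atf3 was number 4, Fosb number 8 and Fos number 21, while Batf was number 1227 and Fosl2 number 2319. The median gene lay 0.13 higher in FDG-increased ileum, and the differences of Batf and Fosl2 are to be read relative to that shift. In limma with adjustment over all genes, 4 genes passed (0.037%), all higher, and 2 of them were Atf3 and Fosb. The differences that chose these genes are the same ones, so nothing is read from that count. Without sham replicate 1, sham replicate 2 or either of the first 2 FDG-increased columns, neither gene passed.

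Of the 9 AP-1 genes fitted, 5 lay above sham in every library, where 10.7% of all genes did. That share depends on scaling, since 1153 genes lay fully above and 480 fully below as deposited, but 886 and 787 after shifting libraries to one median, and 777 and 768 after quantile normalization. Batf overlapped after the median shift, and Batf and Fos after quantile normalization. Without sham replicate 1, Jun joined the 5 and Atf3 differed by 4.03, Fosb by 3.48 and Fos by 3.24. Without the first FDG-increased column these were 3.98, 3.68 and 2.46. Without sham replicate 2 the difference of Jund was 0.44 and that of Batf 0.30, and leaving out single libraries moved Fosl2 between 0.11 and 0.70.

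Between the RYGB groups, Atf3, Fosb, Fos, Fosl1, Maff and the Jun genes were higher with FDG increased in each numbered pair of libraries. Same-numbered libraries deviated together across genes, and pairs 1 and 2 each came from one sequencing lane. Both comparisons share FDG-increased libraries, so they are set side by side and not counted as separate evidence. Fos stood at 34.5, 12.4 and 10.98 FPKM in FDG-decreased ileum and at 313, 87.5 and 30.3 FPKM in FDG-increased ileum, in order of pairs. The groups overlapped, because FDG-increased library 3 lay under FDG-decreased library 1, but Fos was higher in each pair, by ratios of 9.07, 7.04 and 2.76. Fosb stood at 0.887, 0.491 and 1.18 FPKM against 33.9, 18.6 and 10.5 FPKM. Its groups were far apart, with pair ratios of 38.2, 37.9 and 8.95. Fosl1 stood at 0.302, 0.201 and 0.317 FPKM against 1.15, 1.61 and 1.15 FPKM, again apart, with a mean over that table under 1 FPKM. Fosl2, at 106, 44.3 and 41.0 FPKM against 117, 51.2 and 35.4 FPKM, differed little in any pair and was lower in the third.

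The Jun genes overlapped between the groups, and each was higher with FDG increased in all pairs. Jun stood at 52.2, 26.1 and 23.8 FPKM in FDG-decreased ileum and at 142, 61.9 and 38.9 FPKM in FDG-increased ileum. Junb stood at 116, 31.6 and 34.7 FPKM against 246, 75.1 and 46.0 FPKM, and Jund at 157, 36.5 and 69.4 FPKM against 297, 96.7 and 108 FPKM. In all 3 genes the libraries of pair 1 were high in both groups, which makes the groups overlap. Pair ratios ran from 1.63 to 2.72 for Jun, from 1.33 to 2.38 for Junb and from 1.56 to 2.65 for Jund.

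Atf3 stood at 8.82, 5.46 and 2.77 FPKM in FDG-decreased ileum and at 147, 93.1 and 24.4 FPKM in FDG-increased ileum. The groups did not overlap, and the pair ratios were 16.6, 17.04 and 8.81. Maff stood at 7.27, 3.84 and 4.29 FPKM against 25.5, 21.6 and 7.55 FPKM, and the groups were apart by a narrow margin at the third FDG-increased library. Batf, at 3.06, 1.57 and 0.305 FPKM against 2.88, 2.27 and 0.698 FPKM, overlapped, and was lower in pair 1 and higher in the others. Pair 3, whose libraries came from different lanes, had the smallest ratio of the 3 pairs for Atf3, Fosb, Fos, Fosl1, Maff, Jun, Junb, Jund and Fosl2.

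FDG-increased minus FDG-decreased on the log2(FPKM + 1) scale was 3.51 for Atf3 (SE 0.668), 3.44 for Fosb (SE 0.417), 2.42 for Fos (SE 0.832) and 1.53 for Maff (SE 0.465). It was 1.11 for Jun, 0.98 for Jund, 0.90 for Junb, 0.22 for Batf and 0.05 for Fosl2. Among all 10739 genes fitted, Atf3 and Fosb were numbers 1 and 2 in order of size, and Fos was number 8. Without FDG-increased library 1 the difference of Fos was 1.56, of Jun 0.60, of Jund 0.47, of Junb 0.22, of Batf -0.02 and of Fosl2 -0.43. Over all libraries left out singly, Junb ran from 0.22 to 1.49, Jund from 0.47 to 1.52, Batf from -0.21 to 0.60 and Fosl2 from -0.43 to 0.48. The plot of differences sets both comparisons side by side.

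**Figure D2:**
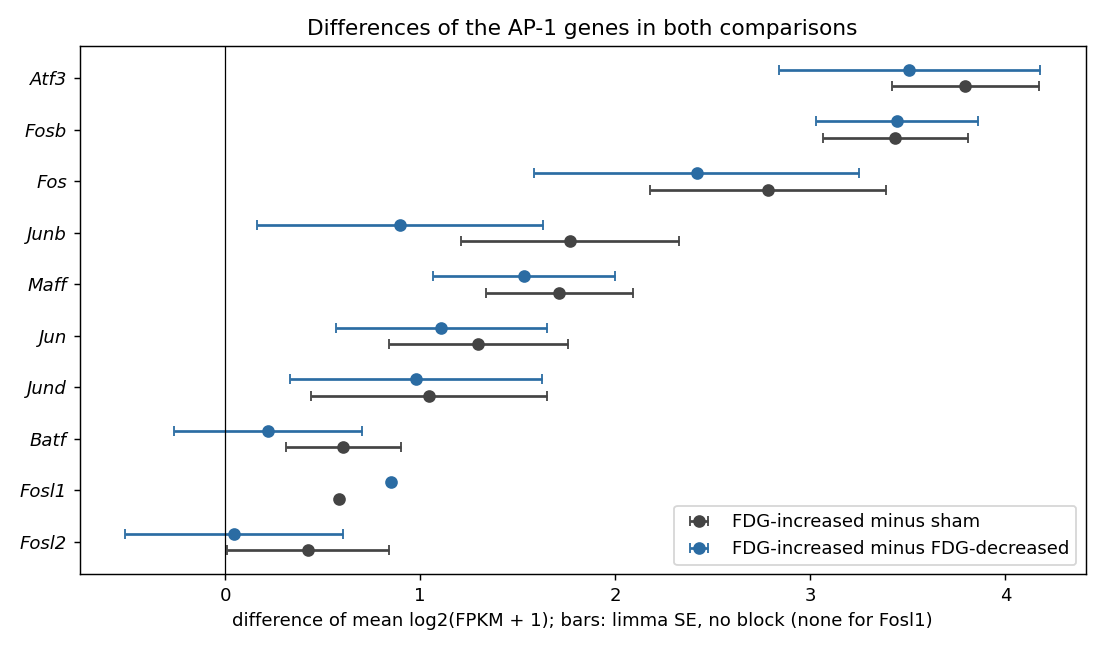
Difference of mean log2(FPKM + 1) of each AP-1 gene, FDG-increased minus sham (dark) and FDG-increased minus FDG-decreased (blue), with the limma standard error as bars (none for Fosl1, which was not fitted). Atf3, Fosb and Fos lie between 2.42 and 3.80 in both, and Batf and Fosl2 at 0.61 or less.

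In limma without pairing no gene passed (0%), with 110 at an unadjusted p under 0.05. With the replicate number as a block, 122 genes passed (1.14%), and 6 of the 9 AP-1 genes were among them: Atf3, Fosb, Jun, Junb, Jund and Maff. The block lowered the standard error of Jun from 0.541 to 0.161 and that of Junb from 0.733 to 0.170. FDG-increased libraries lay fully above for 3 of 9 AP-1 genes, against 1.26% of all genes, and higher in all pairs for 7 of 9, against 12.7%. These counts rest on the contrast by which the genes were chosen, and nothing is read from them.

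FDG-decreased and sham ileum were set side by side through the shared libraries, which put the RYGB table on the scale of the sham table by a factor of 1.0217. No test was run across the tables. All 10 genes overlapped between these groups. The share of all genes that overlapped was not counted, so nothing is read from that count. The ratio of FDG-decreased to sham means ran from 0.579 for Fos to 1.13 for Junb, with Atf3 at 0.826 and Fosb at 0.735. The FDG-increased library that only the RYGB table holds lay above the sham range for Atf3 (24.9 FPKM), Fosb (10.8 FPKM) and Fosl1 (1.18 FPKM). It lay inside that range for Fos (30.9 FPKM), Jun, Junb, Jund, Batf and Maff, and just below it for Fosl2. For Fos the top of the range was sham replicate 1 (57.3 FPKM), the library that went against its tissue label. The other sham libraries stood at 15.99 and 28.9 FPKM, under this FDG-increased library. How many of all genes lay above the sham range in it was not counted.

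The make-up of the family was compared as each gene's share of the summed FPKM of the 10 genes, which needs no scaling between libraries. Jun family genes held 65.2% of the sum in sham ileum (61.1% to 68.0%) and 51.5% in FDG-increased ileum of the same table (45.9% to 56.9%). The Fos family held 30.2% and 33.8%, ranges that overlapped. Within it Fosl2 held 19.5% of the sum in sham and 8.33% in FDG-increased ileum, while Fos held 10.2% and 22.8%. Atf3, Batf and Maff together held 4.64% in sham ileum (3.45% to 5.27%) and 14.7% in FDG-increased ileum (8.05% to 22.9%), with Atf3 alone at 12.03%. In FDG-decreased ileum the shares were 64.2% for the Jun family (58.0% to 67.8%) and 4.84% for the 3 partners (3.90% to 6.69%), ranges that overlapped those of sham. The share of Fos was lower there than in sham ileum, at 6.85% (5.82% to 7.64%) against 10.2% (8.07% to 12.6%), with no overlap and no test. FDG-increased ileum of the RYGB table held 53.8% (45.9% to 63.7%), which overlapped, and 15.6% (10.8% to 22.9%), which did not. In sham ileum Jund was the most abundant of the 10 genes by mean level, and in FDG-increased ileum of that table it was Fos, but the spreads of Fos, Jund and Junb overlapped there.

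**Figure D3:**
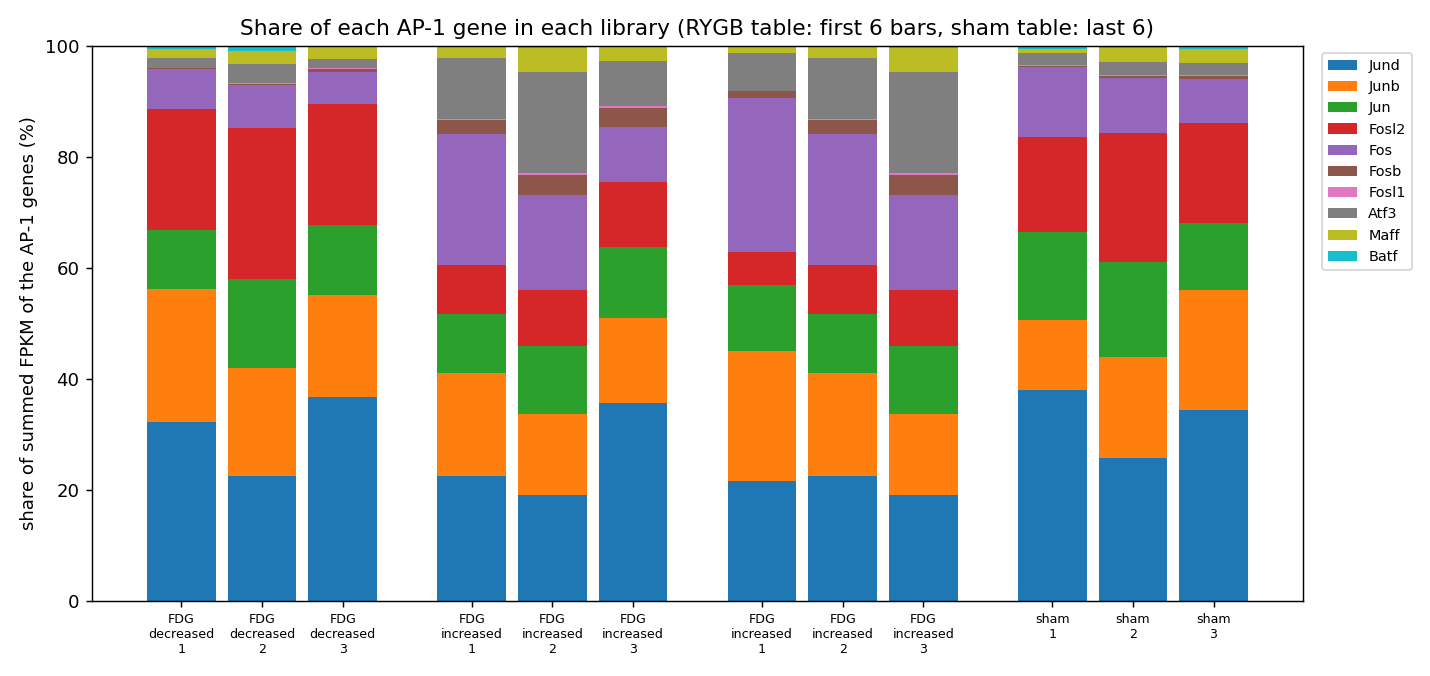
Share of each AP-1 gene in the summed FPKM of the 10 genes (%), one bar per library, with the RYGB table as the first 6 bars and the sham table as the last 6. The grey Atf3 band is wider in each FDG-increased library (6.75% to 18.3%) than in FDG-decreased and sham libraries (1.47% to 3.36%), and the red Fosl2 band is narrower.

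Among 10643 genes, those whose levels followed Fos, Jun or Atf3 most closely were ranked. The measure was Pearson's r of log2(FPKM + 1) over the 6 libraries of each table, averaged over both tables. The tables share 2 libraries, so the values describe 10 libraries. Closest to Fos were Ube2g2, a ubiquitin-conjugating enzyme (0.962), Zfp36, which destabilises early messages (0.951), and Btg2, an antiproliferative early gene (0.947). Closest to Jun were Ube2g2 (0.972), Csrnp1 (0.959) and the early gene Ier2 (0.956). Closest to Atf3 were Btg2 (0.996), the pseudokinase gene Trib1 (0.979) and Acta1, skeletal muscle actin (0.972). A close pattern need not mean a large change, since Ube2g2 was only 0.27 higher in FDG-increased than in sham ileum on the log2 scale. Among the AP-1 genes themselves, Fos and Jun ran together (0.985), as did Atf3 with Fosb (0.972) and Maff (0.938), while Atf3 and Fosl2 did so least of the pairs with Atf3 (0.495).

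Around AP-1, lists of upstream and downstream genes were counted by direction. The lists were chosen with earlier results of these data known, so their counts and adjusted p-values are given as a description. Of all genes 0.037% passed in limma against sham, and 1.14% passed against FDG-decreased ileum with the block, in either direction. In FDG-increased against sham ileum 64.7% of all genes were higher and the median difference was 0.13, and against FDG-decreased ileum 44.8% were higher and the median was -0.02. The kinases that activate AP-1 lay near the median of all genes: of 17 MAP kinase cascade genes, 12 were higher and 5 lower than sham with a median of 0.16, and 7 were higher and 10 lower than in FDG-decreased ileum with a median of -0.03. None passed in limma, with or without the block. The members farthest from 0 were Mapk12, a p38 kinase, at 1.25 ± 0.160 against 2.34 ± 1.09 FPKM in sham ileum, and Map2k6, a p38 activator, at 18.3 ± 9.37 against 12.6 ± 5.01 FPKM (SD, n = 3 each). Against FDG-decreased ileum they were Map3k8 (2.28 ± 1.38 against 1.72 ± 0.832 FPKM) and Mapk9 (33.7 ± 11.2 against 37.8 ± 13.4 FPKM; SD, n = 3 each). Of 9 genes for serum response factor and its cofactors, 6 were higher in each comparison, with medians of 0.08 and 0.09, and none passed. Srf itself stood at 29.5 ± 4.56 against 16.6 ± 4.32 FPKM in sham ileum and at 27.5 ± 6.45 against 16.7 ± 4.77 FPKM in FDG-decreased ileum (SD, n = 3 each), and Mef2a at 28.5 ± 19.4 against 18.6 ± 4.48 and at 31.7 ± 15.6 against 26.3 ± 11.2 FPKM.

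Other basic leucine zipper partners were 14 higher and 3 lower of 17 against sham (median 0.40) and 13 and 4 against FDG-decreased ileum (median 0.12). None passed against sham, where Mafk, a small Maf protein, stood at 54.9 ± 15.4 against 22.1 ± 9.55 FPKM and Crem, a cyclic AMP responsive factor, at 12.7 ± 11.3 against 3.79 ± 1.62 FPKM (SD, n = 3 each). Against FDG-decreased ileum only Crem of this list rose with the block, by 1.38 (limma adjusted p = 0.00555). MAP kinase phosphatases, the feedback inhibitors of these kinases, were 8 of 10 higher than sham (median 0.54) and 8 of 9 higher than in FDG-decreased ileum (median 0.70). Against sham none passed, with Dusp1 at 142 ± 68.8 against 32.5 ± 9.56 FPKM and Dusp5 at 22.0 ± 12.1 against 5.04 ± 3.18 FPKM (SD, n = 3 each). With the block Dusp1 rose by 1.63 and Dusp10 by 0.93 over FDG-decreased ileum (limma adjusted p = 0.00933 and 0.0360).

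Textbook AP-1 targets were 12 of 14 higher in either comparison, with medians of 0.89 against sham and 0.62 against FDG-decreased ileum. None passed against sham. Ptgs2, the inducible cyclooxygenase, stood at 33.2 ± 10.1 against 3.97 ± 2.75 FPKM in sham ileum (SD, n = 3 each). With the block, Hbegf, an EGF receptor ligand, rose by 2.33 and Plaur, the urokinase receptor, by 1.08 over FDG-decreased ileum (limma adjusted p = 0.0354 and 0.0271). Other early-response genes were 20 of 23 higher than sham (median 1.45) and 21 of 22 higher than in FDG-decreased ileum (median 0.97). Nr4a1, an orphan nuclear receptor, was the only one of them called against sham, at 48.2 ± 8.37 against 4.40 ± 2.56 FPKM (SD, n = 3 each; limma adjusted p = 0.0306). That call was lost with a pseudocount of 0.1, without the level filter, under either other scaling, and without sham replicate 1, sham replicate 2 or either of the first 2 FDG-increased columns. With the block 9 of 22 rose over FDG-decreased ileum, where 1.14% of all genes passed in either direction. Among the 9 were Egr1, higher by 1.94, Socs3, a cytokine signal inhibitor, by 1.78 and Trib1 by 1.75 (limma adjusted p = 0.000318, 0.00555 and 0.000735). This list was chosen with earlier results of these data known, so nothing is read from that count. Without the block none of the genes named against FDG-decreased ileum passed. Without sham replicate 1, 11 of 14 AP-1 targets and 20 of 23 other early genes were higher than sham, and without the first FDG-increased column 12 and 21 were. By the same omissions 15 or 13 of 17 zipper partners, 9 or 9 of 10 phosphatases, 12 or 12 of 17 kinase genes and 5 or 8 of 9 serum response factor genes were higher. Of all genes, 63.7% were higher without sham replicate 1 and 69.7% without the first FDG-increased column.

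**Figure D4:**
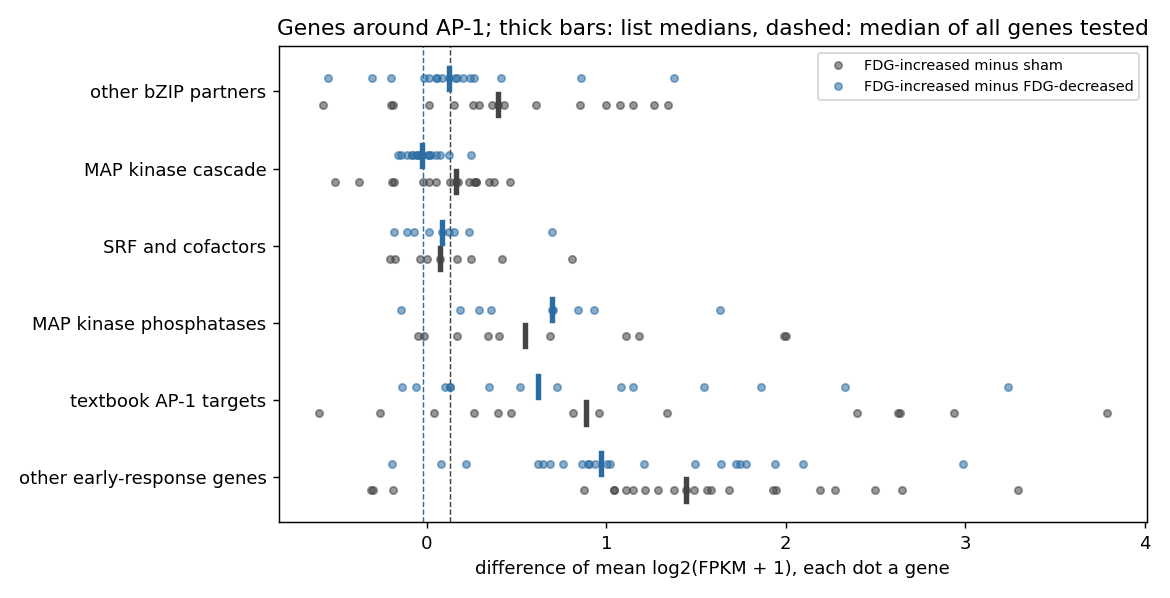
Difference of mean log2(FPKM + 1) of each measured gene (dots) in 6 lists around AP-1, FDG-increased minus sham (dark) and FDG-increased minus FDG-decreased (blue); thick bars are list medians and dashed lines the medians of all genes. MAP kinase and serum response factor lists centre near the median of all genes, and early-response genes at 1.45 and 0.97.

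Other gene groups differed too, some upward and some downward, and their part in the differences of AP-1 was not tested. These lists were also chosen with earlier results of these data known. All 12 heat-shock genes were higher in FDG-increased than in sham ileum (median 1.60), with sums of 4800 to 9728 FPKM against 2123 to 3335 FPKM, and none was at 0. Against FDG-decreased ileum 11 of 12 were higher (median 0.44), with overlapping sums of 4027 to 9533 and 2909 to 8749 FPKM. In all pairs 9 of the 12 were higher, where 12.7% of all genes were. With the block 4 rose, where 1.14% of all genes passed in either direction. Among the 4 were Hspb1, higher by 0.95, and Bag3, by 0.77 (limma adjusted p = 0.00595 and 0.0252). T and NK cell markers were 13 of 14 higher than sham, with sums of 111 to 186 against 47.8 to 85.2 FPKM, but 7 of 14 higher than in FDG-decreased ileum, where sums were 24.4 to 182 and 33.3 to 177 FPKM. Macrophage and dendritic markers were 8 of 10 higher in either comparison, with sums of 242 to 347 against 102 to 186 FPKM in sham ileum. Against FDG-decreased ileum the sums overlapped, at 44.8 to 298 and 54.7 to 210 FPKM. Of the 10, 4 were higher in all pairs, where 12.7% of all genes were. All 7 epithelial markers measured were higher than sham (median 0.32), with overlapping sums of 5671 to 7389 and 3517 to 6330 FPKM. All 7 adipocyte genes measured were lower than sham (median -1.26). The sums of that list overlapped, at 75.4 to 116 and 75.3 to 583 FPKM, with the 583 FPKM in sham replicate 2. Against FDG-decreased ileum all 5 adipocyte genes measured were higher (median 0.35), but 0 of them in all pairs. There the sums overlapped, at 51.6 to 114 and 62.5 to 77.3 FPKM. Proximal intestine genes were 5 of 6 lower there (median -1.28), and with the block the hormone gene Gip fell by 2.10 and Lct by 1.79 (limma adjusted p = 0.000318 and 0.0190). Ileal enterocyte genes were 5 of 6 higher than sham (median 0.97), or 4 of 6 without sham replicate 1. Against FDG-decreased ileum 4 of 6 were higher (median 0.20) and 2 lower. Of this list Cubn, the ileal vitamin receptor cubilin, fell by 2.03 against FDG-decreased ileum with the block (limma adjusted p = 0.00555). All 4 haemoglobin genes measured were lower with FDG increased in both comparisons. B and plasma cell markers were 3 of 4 higher than sham, and 5 of 5 lower than in FDG-decreased ileum. Smooth muscle genes were 4 of 8 higher than sham and 5 of 8 higher than in FDG-decreased ileum. Fibroblast genes were 2 of 6 and 4 of 6 higher. Without sham replicate 1 the counts higher than sham were 12 of 12 heat-shock genes, 13 of 14 T and NK cell markers and 8 of 10 macrophage and dendritic markers. Of all genes 63.7% were higher by that omission. By the labels, lane 7 held every sham library but only 1 FDG-increased library, with the others in lane 4.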

How the data were processed

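Libraries were made from total RNA with a stranded kit that depletes ribosomal RNA, per the labels' protocols. The submitters' processing notes name bcl2fastq 1.8.4, STAR 2.6.0a, Cufflinks 2.2.1, Cuffdiff and DESeq2 1.24.0, and list hg19, a human build, although the symbols are those of rat. The authors deposited FPKM per gene in 2 tables, each with its own scaling. The number of sample columns left unused was 0, and 25 rows whose names had become dates were left out.

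The scale was log2(FPKM + 1), and a gene was fitted if its mean over a table reached 1 FPKM. Groups were compared within a table by limma 3.58.1 in R 4.3.3 (trend and robust moderation, two-sided, Benjamini-Hochberg adjustment over all genes, threshold 0.05), a procedure tested on simulated data. The simulated libraries were independent and varied less than several AP-1 genes did here, and the block was not simulated. In the RYGB table the deviations of same-numbered libraries from their group means correlated at 0.845, 0.763 and 0.768, so the block by number is given there. Alternatives were the pseudocount, the level filter, scaling, the block, lane 7 alone and leaving out each library. The members and lists were chosen with earlier results of these data known. Named were all 10 members and, from each pathway list, up to 3 genes past the threshold by size, or otherwise the 2 with the largest difference; 1 gene of these pathway lists is not reported here. For likeness, 3 genes were named for each of Fos, Jun and Atf3. Promoters came from RefSeq (GRCr8).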

Additional observations from a re-analysis of the deposited data

How the results depend on the processing

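For FDG-increased against sham ileum, 4 of 10801 genes (0.037%) passed in limma, 2 of them AP-1 genes. With a pseudocount of 0.1 or libraries shifted to one median, 1 gene passed (Atf3). Without the level filter or after quantile normalization 0 passed, with 1055 and 812 genes at an unadjusted p under 0.05. Leaving out each library in turn gave 0 to 13 genes and 0 to 3 AP-1 genes. The count of genes was 0 without the first or second FDG-increased column or sham replicate 2, and 1 without sham replicate 1. It was 7 without sham replicate 3 and 13 of 10774 without the third FDG-increased column, where the 3 AP-1 genes were called. Of the AP-1 genes, 5 lay above sham in every library as deposited, where 1153 of all 10801 genes did. After the median shift 4 did, where 886 of all genes did, and after quantile normalization 3, where 777 did. Without sham replicate 1 there were 6, where 22.6% of all genes did so, and without the first FDG-increased column 5, where 20.7% did; both were chosen after seeing the data. The lane 7 libraries alone, with the first or the second FDG-increased column as the library of that lane, gave 0 genes (254 at an unadjusted p under 0.05) or 3 genes, Atf3 and Fosb among the 3. In the sham table the replicate block called 39 of 10801 genes, of which 4 were AP-1 genes, but the numbers did not pair the samples. The deviations of same-numbered libraries correlated at 0.350, -0.498 and -0.246, and sham replicate 2 was closest to the third FDG-increased column (0.660). The causes of these moves were not tested.

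For FDG-decreased against FDG-increased ileum, 0 genes passed without pairing and 122 with the replicate block (1.14%), among them 6 AP-1 genes. When a library was left out 0 to 1 passed, the 1 without FDG-decreased replicate 1. Lane 7 alone leaves 1 library a group there and could not be fitted with a test. Of 236 recomputed differences of AP-1 genes, 231 kept their sign. The other 5 were Fosl2 and Batf, each with a library of the RYGB table left out. Dropping the level filter or adding the block cannot change a difference of group means, so the sign was fixed in those settings. The genes were also selected on these differences, so the count does not measure stability. A pseudocount of 0.1 moved Fosb to 4.30 and 4.38, and Fosl1 to 1.23 and 1.91. With no counts deposited, the depth behind low values such as those of Fosl1 and Batf is unknown.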
